A study of Mus musculus with 2 samples.

Results

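A group of 10 genes that mark group 2 innate lymphoid cells was followed in LSK cells of leukemic mice with and without miR-142. The group held Gata3, Rora, Id2, Il1rl1, Il2ra, Icos, Klrg1, Cxcr6, Calca and Arg1, that is 10 of the 32285 features in the count matrices, and all 10 were among the 14210 genes with 50 or more unique molecular identifiers (UMIs) over both libraries. The genes were chosen by name as a list, with their UMI levels in these same libraries already known, so their levels and ratios are descriptions. LSK cells are the lineage-negative, Sca-1+ and c-Kit+ fraction of bone marrow, which holds stem cells and early progenitors. Both groups carried an SCLtTA/BCR-ABL transgene, in which withdrawal of tetracycline turns on the human BCR-ABL fusion under stem cell and progenitor control as a model of chronic myeloid leukemia (CML), and BCR-ABL had been induced for 2 weeks. The miR-142 WT CML library came from mice with intact miR-142 and the miR-142 KO CML library from mice lacking it, all 8 to 10 weeks old. How many mice went into a library is not given in the sources used here.

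Group 2 innate lymphoid cells are tissue-resident lymphocytes without rearranged antigen receptors. They answer the epithelial cytokines IL-33, IL-25 and TSLP with IL-5, IL-13 and amphiregulin, and they arise from bone marrow progenitors that need GATA3, RORα and ID2. Mast cells and basophils share part of this equipment, since they also carry the IL-33 receptor and release type 2 cytokines. A gene of the group seen alone therefore does not name a cell.

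There was 1 library per group, so no test was possible and no p-value is given. Intervals are exact 95% intervals that cover counting error and say nothing of the spread between mice. Barcodes with at least 1000 UMIs and under 10% mitochondrial UMIs were kept, which gave 6658 barcodes in WT and 6711 in KO, with medians of 15914.5 and 19152 UMIs. The libraries shared 8 barcode sequences. The host transcript of miR-142, Mir142hg, had 1374 UMIs in WT and 20 in KO (9.59 against 0.121 CPM, the summed UMIs of a gene scaled to a common total of UMIs). Free RNA, that is RNA from broken cells that enters every droplet, was read from barcodes with 10 to 100 UMIs, and the level of each gene there was set beside its level in cells.

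The miR-142 locus yields a pair of mature miRNAs, whose sequences are given here from RefSeq with the seed (bases 2 to 8) in capitals, because a seed match in a 3′ untranslated region is the usual mark of a direct target. They lie on the plus strand of chromosome 11 (GRCm38.p6), the 3p arm at chr11:87756903-87756925 and the 5p arm at chr11:87756867-87756887.
mmu-miR-142a-3p: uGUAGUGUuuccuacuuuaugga
mmu-miR-142a-5p: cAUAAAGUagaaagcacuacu
Of the 10 genes, 1 held a match to the 3p seed (ACACTAC) and 2 held a match to the 5p seed (ACTTTAT) in the longest annotated 3′ untranslated region. Over the 20870 genes with such a region, 6.05% held the former match and 14.4% the latter. The matches are shown in capitals with their flanks, in the sense of the transcript.
Il1rl1, 3p match: gagattgtACACTACagactagg
Gata3, 5p match: tgaggaagACTTTATtgtacctg
Icos, 5p match: atgtatatACTTTATcgaactca
The Il1rl1 match began at base 1275 of 3246 of the untranslated region (chr1:40463444-40463450, plus strand) and was followed by an adenine. The Gata3 match began at base 335 of 1292 (chr2:9858029-9858035, minus strand) and the Icos match at base 525 of 2606 (chr1:60998239-60998245, plus strand). Rora, Id2, Il2ra, Klrg1, Cxcr6, Calca and Arg1 had neither match in this region. A match is a description of the letters and not evidence that the site is used.

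To ask which cells carried the genes, the barcodes of both libraries were clustered together with all 10 genes left out of the clustering. The barcodes fell into 11 clusters. In cluster 7, which held 43 WT and 562 KO barcodes, all 10 genes were at 20 CPM or more and above free RNA in both libraries. In cluster 10, which held 1 WT and 91 KO barcodes, 9 of the 10 were so in KO. Clusters 7 and 10 held from 2.61% (Il1rl1) to 81.2% (Cxcr6) of the UMIs of a gene in WT. In KO they held from 25.5% (Il1rl1) to 82.9% (Klrg1). Together clusters 7 and 10 were 0.661% of WT barcodes (95% interval 0.481 to 0.886) and 9.73% of KO barcodes (9.03 to 10.5). With the libraries unreplicated, this difference in share describes these 2 libraries. In bulk sums, fewer cells of a type and less RNA per cell cannot be told apart, which is why levels are given by cluster below.

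Cluster 7 was checked against marker lists that held none of the 10 genes. Of 16 markers of group 2 innate lymphoid cells, 14 stood at 20 CPM or more in the WT barcodes and 13 in the KO barcodes, led by Il7r, the IL-7 receptor, at 1244 and 1552 CPM. Of 9 markers of group 3 innate lymphoid cells none did, and of 10 markers of natural killer and group 1 innate lymphoid cells 3 did in WT and 2 in KO. Of 10 T cell markers, 4 did in WT and 2 in KO. The level of 20 CPM was also reached by 6 of 10 early neutrophil markers in WT and 8 in KO. Of 10 lymphoid-primed markers, Il7r among them, 6 reached it in WT and 5 in KO. With 2-fold over the other barcodes also asked for, 12 group 2 markers passed over both libraries together, and 3 of the next list, that of basophils. The constant regions of the T cell receptor beta chain, Trbc1 and Trbc2, stood at 813 and 533 CPM in WT and at 161 and 204 CPM in KO, while Cd3e had 0 UMIs in both, Cd3d had 0 UMIs in WT and 2 in KO, and Cd3g stood at 102 CPM in WT against 3.82 in KO. Barcodes with any UMI of Cd3d, Cd3e or Cd3g were 14 of 43 in WT (32.6%) and 11 of 562 in KO (1.96%). The summed level of the T cell list was 1539 CPM in WT and 385 in KO, and that of a list of 15 mast cell markers, of which 4 and 3 reached 20 CPM, was 537 and 1601 CPM. Their part in the levels of the 10 genes was not tested, except for the barcodes with Cd3 UMIs, which are left out in a comparison below. Because the 10 leading genes of cluster 7 held 2 T cell markers (Trbc1 and Trbc2) against 1 of the group 2 list (Il7r), the naming rule left it unnamed, and it is called by its number. Cluster 10 was named group 2 innate lymphoid-like (ILC2-like). Its KO barcodes also carried stem and progenitor genes, among them Cd34 at 266 CPM and Hlf at 79.0 CPM. Cd34 in cluster 7 stood at 7.56 CPM in WT against 7.25 in KO. In the KO barcodes of cluster 10, 10 of the 16 group 2 markers stood at 20 CPM or more, summing to 1404 CPM. So did 8 of the 10 early neutrophil markers, summing to 2130 CPM, and 7 of the 10 lymphoid-primed markers, summing to 1032 CPM. With 2-fold over the other barcodes also asked for, 9 group 2 markers passed, and 2 of the next list, that of T cells. The part of mixed barcodes in these levels was not tested.

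The antigens of the sort were detected in cluster 7. Kit, which codes for c-Kit, stood at 125 CPM in WT against 274 in KO, where free RNA held 52.4 and 36.4 CPM, and Ly6a, the Sca-1 gene, at 1528 CPM and 5365 CPM, where free RNA held 130 and 245 CPM. The barcodes of cluster 7 were shallow, with medians of 5416 UMIs in WT and 4448.5 in KO, and those of cluster 10 in KO had a median of 14967.

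**Figure D1:**
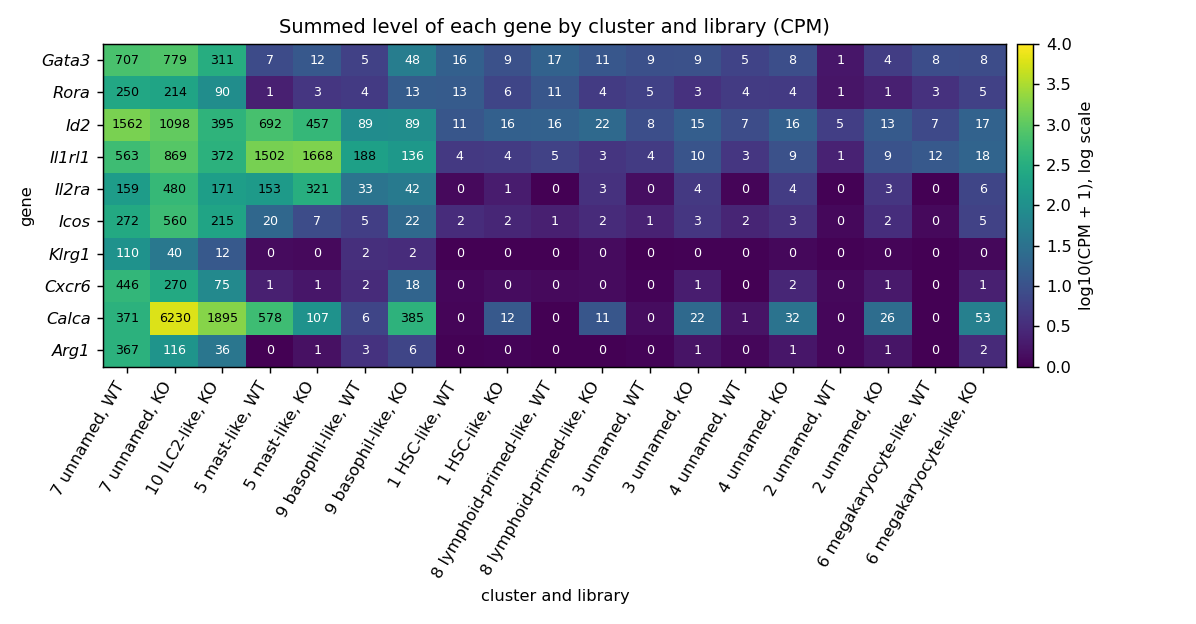
Summed level of each of the 10 genes (rows) in each cluster and library (columns), printed in CPM rounded to whole numbers and coloured as log10(CPM + 1). The single WT barcode of cluster 10 and the plasma-like cluster 11 are left out. The 10 genes stand together in the columns of cluster 7, whereas the mast-like columns are high in Id2, Il1rl1 and Il2ra, and in WT also in Calca.

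The transcription factors came first by role. Gata3 (ENSMUSG00000015619, chr2:9857078-9890034), which codes for the zinc finger factor needed for the group 2 lineage, stood at 707 CPM in the WT barcodes of cluster 7 (609 to 816) and at 779 CPM in the KO barcodes (745 to 813). Gata3 was detected in 40 of 43 WT and 503 of 562 KO barcodes of the cluster, and its intervals overlapped. Rora (ENSMUSG00000032238, chr9:68653786-69388246), the gene of the orphan nuclear receptor RORα, stood at 250 CPM (193 to 318) and 214 CPM (196 to 232), which also overlapped. Id2 (ENSMUSG00000020644, chr12:25093799-25097140), an inhibitor of E proteins required by all innate lymphoid cells, stood at 1562 CPM (1415 to 1720) and 1098 CPM (1058 to 1139), lower in KO. In the KO barcodes of cluster 10 the levels of these genes were 311 CPM for Gata3, 89.7 CPM for Rora and 395 CPM for Id2.

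The cytokine and costimulatory receptors were higher in the KO barcodes of cluster 7. Il1rl1 (ENSMUSG00000026069, chr1:40429570-40465415), the ligand-binding chain of the IL-33 receptor, stood at 563 CPM in WT (477 to 662) and 869 CPM in KO (834 to 905). Il2ra (ENSMUSG00000026770, chr2:11642807-11693193), the α chain of the IL-2 receptor, stood at 159 CPM (115 to 215) and 480 CPM (454 to 507). Icos (ENSMUSG00000026009, chr1:60977927-61000320), an inducible costimulatory receptor, stood at 272 CPM (213 to 343) and 560 CPM (532 to 589). These intervals cover counting error only. Klrg1 (ENSMUSG00000030114, chr6:122270596-122282882), an inhibitory receptor for cadherins found on mature cells, and Cxcr6 (ENSMUSG00000048521, chr9:123806475-123811760), the receptor of CXCL16, were lower in KO. Klrg1 stood at 110 CPM (73.4 to 158) in WT and 39.7 CPM (32.4 to 48.1) in KO, and was detected in 13 of 43 and 68 of 562 barcodes. Cxcr6 stood at 446 CPM (369 to 534) and 270 CPM (250 to 290).

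The effector genes went in opposite directions in cluster 7. Calca (ENSMUSG00000030669, chr7:114631478-114636357), which codes for calcitonin and, by alternative splicing, the neuropeptide CGRP, stood at 371 CPM (301 to 452) in WT and 6230 CPM (6135 to 6326) in KO. The counts are per gene and do not separate the splice forms. Calca was detected in 10 of 43 WT barcodes, 1 of which held 43 of the 98 UMIs, and in 489 of 562 KO barcodes (87.0%), with a median of 13 and a highest count of 382 UMIs. Arg1 (ENSMUSG00000019987, chr10:24915221-24927484), arginase 1, which breaks down arginine, stood at 367 CPM (297 to 448) and 116 CPM (103 to 129). Arg1 was detected in 29 of 43 WT barcodes and 188 of 562 KO barcodes (33.5%).

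Cluster 10, read in its 91 KO barcodes, held the same genes at lower levels. There Il1rl1 stood at 372 CPM, Il2ra at 171 CPM, Icos at 215 CPM, Cxcr6 at 74.9 CPM and Arg1 at 36.0 CPM. Calca stood at 1895 CPM with a median of 11 UMIs per barcode, and was detected in 79 of the 91 barcodes. Klrg1, at 12.0 CPM, was the member of the group that did not reach 20 CPM there.

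Il1rl1 and Calca were the genes of the group whose promoter windows held a searched motif of the kind bound by 2 other members, GATA3 and RORα. Further forms of the GATA motif were not searched. The windows reach from 250 bases before to 50 after the start site, taken from RefSeq (GRCm38.p6), and 8 windows of 7 of the genes were matched, with none for Arg1, Icos and Klrg1. AGATAA and TGATAA, forms of the GATA motif, and AGGTCA, the core of the ROR motif, were searched on both strands, and no match overlapped another. Of all 32851 windows, 11.2% held AGATAA, 9.05% held TGATAA and 16.3% held AGGTCA. The 3 windows with a match are printed in the sense of the gene, with matches in capitals and those of the other strand as their reverse complement.
Il1rl1, distal start, chr1:40429320-40429619, plus strand: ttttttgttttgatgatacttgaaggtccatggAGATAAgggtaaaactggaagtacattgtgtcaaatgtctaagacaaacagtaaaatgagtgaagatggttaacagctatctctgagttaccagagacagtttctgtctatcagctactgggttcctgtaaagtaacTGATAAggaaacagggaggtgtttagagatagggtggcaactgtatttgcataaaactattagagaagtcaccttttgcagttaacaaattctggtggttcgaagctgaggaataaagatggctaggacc
Il1rl1, proximal start, chr1:40439379-40439678, plus strand: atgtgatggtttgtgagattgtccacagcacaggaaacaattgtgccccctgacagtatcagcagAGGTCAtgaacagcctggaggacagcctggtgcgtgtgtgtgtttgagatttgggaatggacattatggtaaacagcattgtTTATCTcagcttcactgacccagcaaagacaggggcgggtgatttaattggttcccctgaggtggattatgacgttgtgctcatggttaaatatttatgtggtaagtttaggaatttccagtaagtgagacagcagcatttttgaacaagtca
Calca, chr7:114636308-114636607, minus strand: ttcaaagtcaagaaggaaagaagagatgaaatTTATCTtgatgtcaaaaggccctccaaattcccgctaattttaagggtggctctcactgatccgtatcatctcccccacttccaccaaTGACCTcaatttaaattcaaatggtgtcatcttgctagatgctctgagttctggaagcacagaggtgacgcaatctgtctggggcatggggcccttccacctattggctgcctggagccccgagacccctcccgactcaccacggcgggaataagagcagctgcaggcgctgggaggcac
The distal Il1rl1 window held AGATAA at position -217 and TGATAA at -80 from the start site, and the proximal window AGGTCA at -185 and AGATAA on the other strand at -103. The Calca window held both AGATAA at -218 and AGGTCA at -130 on the other strand. No window of Gata3, Rora, Id2, Il2ra or Cxcr6 held any of these motifs. The windows describe sequence only and no binding was measured.

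To see how the genes combined in single cells, each barcode was thinned at random to 1000 UMIs, so that deep and shallow barcodes could be compared. Il1rl1 was the gene found in most WT barcodes after thinning, in 9.36% of WT and 9.78% of KO barcodes, followed by Id2 in 5.98% and 8.58%. Calca was found in 0.841% of WT and 8.61% of KO barcodes, Gata3 in 1.34% and 5.36%, and Icos in 0.300% and 4.11%. Klrg1 was the rarest, in 0.075% and 0.313%. Any of the 10 genes was detected in 13.2% of WT barcodes (12.4 to 14.1) and 18.7% of KO barcodes (17.7 to 19.6). At least 3 of the genes were detected in 60 WT barcodes (0.901%, 0.688 to 1.16) and 506 KO barcodes (7.54%, 6.92 to 8.20). The KO barcodes with 3 or more were mostly of cluster 7 (436 of 506, 86.2%), with 33 mast-like and 29 of cluster 10. In WT the larger part was mast-like (36 of 60), and the other 24 were in cluster 7. Barcodes with exactly 3 genes numbered 43 in WT and 191 in KO, and those with exactly 2, just outside this limit, numbered 291 and 305.

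Within cluster 7, 24 of 43 WT barcodes (55.8%, 39.9 to 70.9) and 436 of 562 KO barcodes (77.6%) carried 3 or more of the genes, with a mean of 2.70 and 3.60 genes per barcode. The most found in 1 barcode were 6 genes in WT and 8 in KO. In the mast-like cluster 5.08% of WT and 8.33% of KO barcodes carried 3 or more, with means of 1.36 and 1.44. In cluster 10 of the KO library the share was 31.9%. As a background, cluster 2, which is led by neutrophil granule genes, carried any of the 10 genes in 0.402% of WT and 3.79% of KO barcodes, at medians of 59383 and 47214 UMIs before thinning.

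**Figure D2:**
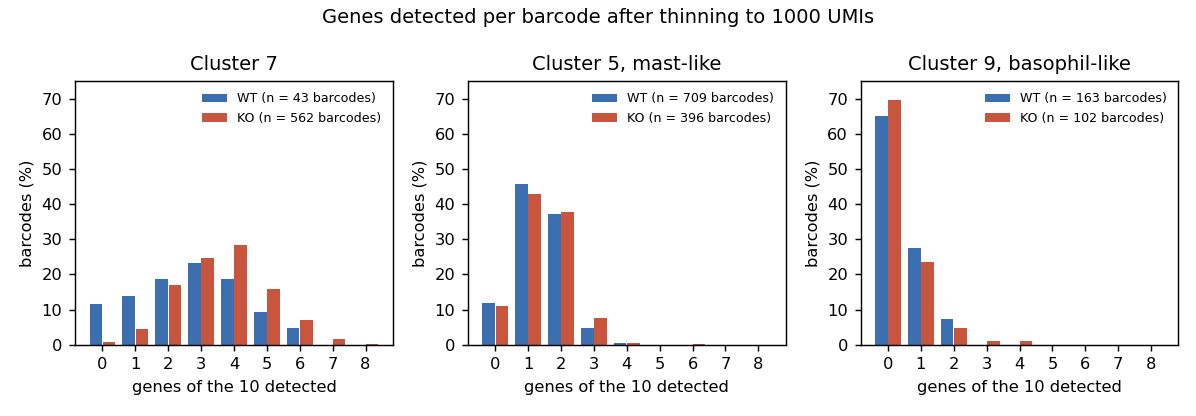
Percent of barcodes (vertical axis) by the number of the 10 genes detected after thinning to 1000 UMIs (horizontal axis), for WT and KO, in cluster 7, the mast-like cluster 5 and the basophil-like cluster 9. Cluster 7 is spread around 3 to 4 genes, whereas mast-like barcodes mostly hold 1 or 2 and basophil-like barcodes mostly 0.

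The combinations differed by cell class. Of the 351 WT barcodes with 2 or more of the genes, 224 (63.8%) carried Id2 and Il1rl1 alone, out of 44 different combinations. Of the 811 such KO barcodes, 101 (12.5%) carried that pair alone, out of 211 combinations. Mast-like barcodes had the pair in common, in 71.7% of the WT barcodes with 2 or more and a smaller share in KO. Cluster 7 had no dominant combination. Its 532 KO barcodes with 2 or more spread over 200 combinations, of which the most frequent, Gata3 with Id2 and Calca, held 18 (3.38%).

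Pairs of the genes were then compared with the number of barcodes that the product of the 2 shares would give. Over all KO barcodes, 41 of the 45 pairs were seen together in 10 or more barcodes, and all of these were above the product, by 3.82 to 13.9 times. Gata3 and Calca were together in 7.97 times as many barcodes as the product, and Icos and Klrg1 in 13.9 times as many. Inside clusters 7 and 10 of the KO library, the 41 pairs with 10 or more barcodes lay at 0.878 to 1.62 times the product, with a median of 1.07, and in WT the 4 such pairs lay at 1.21 to 1.34 times. Inside the mast-like WT cluster, 5 pairs reached 10 barcodes and lay at 0.783 to 1.11 times. The ratios within these clusters were lower than those over the whole library, which in WT lay at 2.52 to 10.8 times for the 8 pairs with 10 or more barcodes.

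**Figure D3:**
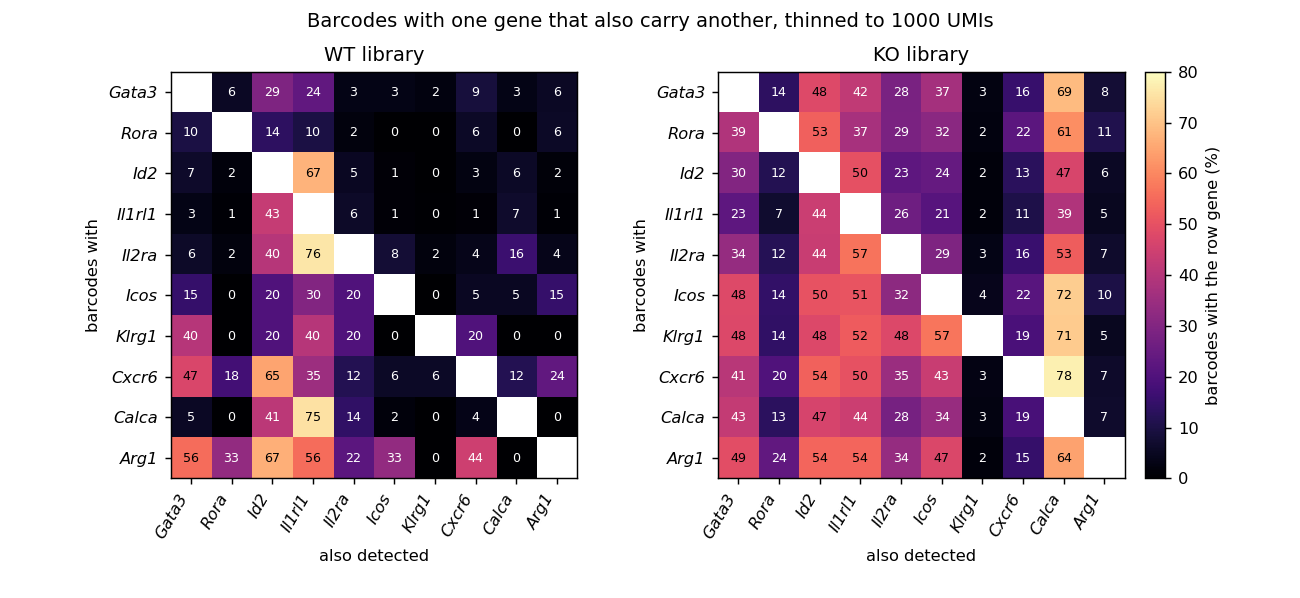
Percent of the barcodes with the row gene that also carried the column gene, after thinning to 1000 UMIs, in the WT library (left) and the KO library (right). In WT the columns with most bright cells are those of Id2 and Il1rl1, whereas in KO the Calca column is bright in most rows.

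Several of the genes were also expressed outside cluster 7. In the mast-like cluster 5 (709 WT and 396 KO barcodes, medians of 1881 and 6904.5 UMIs), Il1rl1 stood at 1502 CPM in WT against 1668 in KO, Id2 at 692 and 457 CPM, and Il2ra at 153 and 321 CPM. All of these were above the free RNA of their library, which for Il1rl1 was 28.1 CPM in WT and 38.0 in KO, for Id2 27.4 and 38.5, and for Il2ra 2.86 and 13.8. Icos was above free RNA in the mast-like WT barcodes, at 20.3 CPM against 1.52, and not in KO, at 7.46 CPM against 9.01. Calca stood at 578 CPM in the mast-like WT barcodes, against 371 CPM in the WT barcodes of cluster 7. Gata3, Rora, Cxcr6, Klrg1 and Arg1 separated the mast-like cluster from cluster 7. Icos did so by level, since it stood at 272 CPM in WT and 560 in KO in cluster 7. In the mast-like WT and KO barcodes Gata3 stood at 7.09 and 11.8 CPM, Rora at 1.23 and 3.35 CPM, and Cxcr6 and Klrg1 at 1.23 CPM or less, while Arg1 had 0 and 2 UMIs.

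The basophil-like cluster 9 (163 WT and 102 KO barcodes) carried the same receptor genes at lower levels. Il1rl1 stood there at 188 CPM in WT against 136 in KO, Id2 at 88.6 and 89.0 CPM, and Il2ra at 33.0 and 41.6 CPM. Gata3 stood at 4.95 CPM in WT, below its free RNA of 5.14 CPM, and at 48.3 CPM in KO, above its free RNA of 16.8 CPM. Calca stood at 5.77 CPM in WT against 385 in KO. The other progenitors held little of the group. In the hematopoietic stem cell (HSC)-like cluster 1, Gata3 stood at 16.0 CPM in WT and 8.83 in KO and Rora at 12.9 and 5.97 CPM, and no gene of the 10 reached 20 CPM. Gata3, Rora and Icos in WT and Rora in KO were above free RNA in this cluster. In clusters 2, 3, 4, 6 and 8, no gene of the 10 was both at 20 CPM and above free RNA in either library.

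By source, the UMIs of Klrg1, Cxcr6 and Arg1 came mainly from clusters 7 and 10 in both libraries, at 72.5%, 81.2% and 77.3% in WT and 82.9%, 80.5% and 75.3% in KO. Gata3, Rora and Icos drew 17.2%, 10.2% and 25.2% of their UMIs from these clusters in WT and 68.9%, 62.1% and 78.7% in KO. Il1rl1 stayed mainly mast-like, with 81.7% of its UMIs in cluster 5 in WT and 59.0% in KO. Calca changed source. In WT 92.6% of its UMIs were mast-like and 4.83% came from clusters 7 and 10, and in KO 1.71% were mast-like and 78.4% came from clusters 7 and 10.

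Calca was unevenly spread over mast-like barcodes. In WT, 97 of 709 carried it and 42 held 5 or more UMIs, up to 200, and the 10 highest held 65.3% of the 1877 UMIs. These 42 barcodes were deeper than the other mast-like barcodes, with a median of 17940 against 1782 UMIs, and they carried mast cell genes, with the carboxypeptidase gene Cpa3 at 33196 CPM against 19001 and the serotonin synthesis gene Tph1 at 3916 CPM against 2297. The mast cell protease gene Mcpt4 was lower in them, at 1443 CPM against 5186. Of the genes of cluster 7, Gata3 stood at 2.46 CPM in these 42 barcodes, and Pdcd1, Trbc1 and Trbc2 had 0 UMIs. Il7r stood at 28.3 CPM, against 102 in the other mast-like barcodes and 3.90 CPM in the free RNA. In the KO library 27 of 396 mast-like barcodes held 5 or more Calca UMIs, with Gata3 at 66.2 CPM against 4.39 and Il7r at 109 CPM against 24.0. The KO level of Calca over the mast-like cluster, 107 CPM, was below the 154 CPM of the free RNA and is not read as expression.

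High Calca counts outside clusters 5, 7 and 10 stood with high doublet scores in the KO library. In clusters 1 to 4, 6 and 8, 105 KO barcodes held 5 or more Calca UMIs against 1 WT barcode. Of these 105, 73.3% (63.8 to 81.5) were among the barcodes with the highest doublet scores from Scrublet, against 4.36% of the 5454 others. Their median depth was 41843 UMIs against 22685.5, and Il7r stood at 162 CPM against 2.95. In the basophil-like KO cluster, 16 of 102 barcodes held 5 or more Calca UMIs, and these had Gata3 at 160 CPM against 9.63 in the rest, Il7r at 320 CPM against 21.1, Pdcd1, a gene among the leading genes of cluster 7, at 66.1 CPM against 0.602, and a median depth of 34146.5 against 15721 UMIs. Of these 16, 5 were top-scoring (31.3%), against 12 of the 86 others (14.0%). The part of doublets in these levels was not tested. In cluster 7 of the KO library 0 of 562 barcodes were top-scoring, and in cluster 10 the share was 13.2%, against 5.36% of all KO barcodes.

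**Figure D4:**
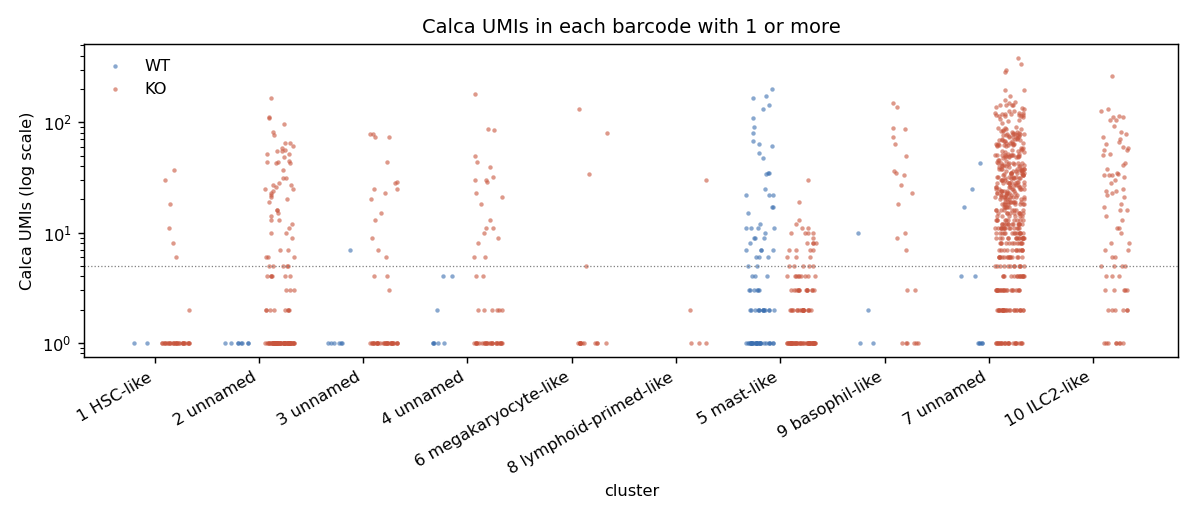
Calca UMIs in each barcode with 1 or more (vertical axis, log scale), by cluster and library, with a dotted line at 5 UMIs. WT barcodes over the line are mast-like in 42 cases and number 5 in all the other clusters shown, whereas 399 KO barcodes of cluster 7 lie on or over it.

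Comparing the libraries as a whole, 7 of the 10 genes reached a 2-fold higher level in KO and 0 a 2-fold lower level, as 2.87% and 7.8% of the 14210 genes did. Of the 7, Klrg1, with 40 UMIs in WT and 146 in KO, passed the UMI limit through the KO library alone. Calca stood at 14.1 CPM in WT against 147 in KO, 10.4-fold higher (log2 ratio 3.38, 3.31 to 3.45). Icos stood at 2.10 and 13.7 CPM (log2 ratio 2.70, 2.53 to 2.88), Cxcr6 at 1.04 and 6.13 CPM (2.56, 2.31 to 2.82) and Il2ra at 4.49 and 20.4 CPM (2.19, 2.07 to 2.31). The other genes past 2-fold were Arg1 at 0.893 and 2.85 CPM (log2 ratio 1.68, 1.39 to 1.97), Klrg1 at 0.279 and 0.887 CPM (1.67, 1.15 to 2.21) and Gata3 at 7.86 and 21.9 CPM (1.48, 1.38 to 1.58). Id2 at 27.1 and 46.1 CPM (0.77), Il1rl1 at 41.6 and 66.7 CPM (0.68) and Rora at 4.66 and 6.72 CPM (0.53) did not reach 2-fold. The median log2 ratio was 1.67 over the 10 genes and -0.14 over all genes, and with median-of-ratios size factors, under which the same number of the 10 passed in each direction, these were 1.82 and 0.0064.

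The comparison was repeated without clusters 7 and 10. There, Gata3 stood at 6.52 CPM in WT against 6.98 in KO (log2 ratio 0.10, -0.03 to 0.23), Id2 at 24.2 and 25.8 CPM (0.09), and Rora at 4.19 and 2.61 CPM (-0.68, -0.87 to -0.50). Il2ra (log2 ratio 1.47), Klrg1 (1.02, from 11 and 25 UMIs), Cxcr6 (2.65), Calca (1.27) and Arg1 (1.83) were 2-fold or more higher, which are 5 of the 10 beside 2.56% of the 14210 genes, and 0 were 2-fold lower, beside 8.33%. The Klrg1 interval, -0.06 to 2.19, held 0. In KO the averages of all 5 genes over these barcodes lay below the free RNA of the library. Il2ra stood at 11.6 against 13.8 CPM, Klrg1 at 0.156 against 0.970, Cxcr6 at 1.23 against 5.34, Calca at 32.6 against 154 and Arg1 at 0.722 against 2.36. Gata3, at 6.98 against 16.8 CPM, and Rora, at 2.61 against 3.60, also lay below it in KO. So did Id2, at 25.8 against 38.5 CPM, and Icos, at 2.98 against 9.01. Il1rl1, at 50.9 against 38.0 CPM, lay above. The ratios of the averages below free RNA are therefore not read as expression, whether higher, lower or near 0. An average can hide single clusters, since Il2ra stood at 321 CPM in the mast-like KO barcodes, above its free RNA. In the basophil-like KO cluster Il2ra, Cxcr6, Calca and Arg1 were also above free RNA, and the part of doublets there was not tested. When both libraries were weighted to one cluster composition, 3 of the 10 were at least 2-fold higher, beside 2.34% of the genes, and 1 was at least 2-fold lower, beside 5.57%, and Rora, Id2, Klrg1, Cxcr6 and Arg1 turned lower in KO.

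Within cluster 7, 3 of the 10 genes had at least a 2-fold higher level in KO, where 8.01% of the 5666 genes compared there were, and 2 were at least 2-fold lower, where 5.15% were. The higher genes were Calca (log2 ratio 4.07, 3.79 to 4.37), Il2ra (1.60, 1.15 to 2.08) and Icos (1.04, 0.70 to 1.40), and the lower ones were Arg1 (-1.67, -2.00 to -1.32) and Klrg1 (-1.47, -2.07 to -0.82). Without the barcodes with a Cd3d, Cd3e or Cd3g UMI, which left 29 in WT and 551 in KO, Icos fell short of 2-fold (0.87, 0.47 to 1.30), and without the top-scoring Scrublet barcodes it stood just under (0.998). On those 29 and 551 barcodes the ratio was 5.26 for Calca, 1.39 for Il2ra, -1.96 for Arg1 and -1.82 for Klrg1. The WT side of each of these ratios rests on 43 barcodes or fewer. Over all barcodes of cluster 7, Il2ra, with 42 UMIs in WT and 1258 in KO, passed the UMI limit through the KO library alone. So did Klrg1, one of the lower genes, with 29 UMIs in WT and 104 in KO.

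The smaller comparisons covered genes with 50 or more UMIs in the cluster over both libraries, a limit that a gene could pass through 1 library alone. In the mast-like cluster 1 of 6 such genes of the group was at least 2-fold higher in KO, Il2ra (log2 ratio 1.08, 0.92 to 1.23), beside 4.97% of all genes compared there. Icos (-1.45, -2.13 to -0.80) and Calca (-2.44, -2.59 to -2.28) were at least 2-fold lower, beside 3.08%. In KO both lay below free RNA, Icos at 7.46 against 9.01 CPM and Calca at 107 against 154, so the size of these ratios is not read. Finer clustering gave 2 mast-like clusters. Calca stood at 936 CPM in WT against 117 in KO in 1 of them (119 and 143 barcodes). In the other (563 and 204 barcodes) it stood at 131 and 106 CPM. Icos, with 66 UMIs in WT and 29 in KO, passed the UMI limit through the WT library alone. In the basophil-like cluster 3 of 6 were at least 2-fold higher, Gata3 (3.29), Icos (2.27) and Calca (6.06), beside 2.28%, and 0 were lower, beside 3.27%. Of these, Gata3 and Calca passed the UMI limit through the KO library alone. Gata3 and Icos were high there in the 16 Calca-rich barcodes, Icos at 71.3 CPM against 4.82 in the rest. In the HSC-like cluster Calca had 2 UMIs in WT and 142 in KO, at 12.3 CPM and below its free RNA, so it has no ratio and is not counted. Of the other 5 genes 0 were at least 2-fold higher, beside 1.48%, and 1 was lower, beside 3.94%, namely Rora (-1.11, -1.52 to -0.71).

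**Figure D5:**
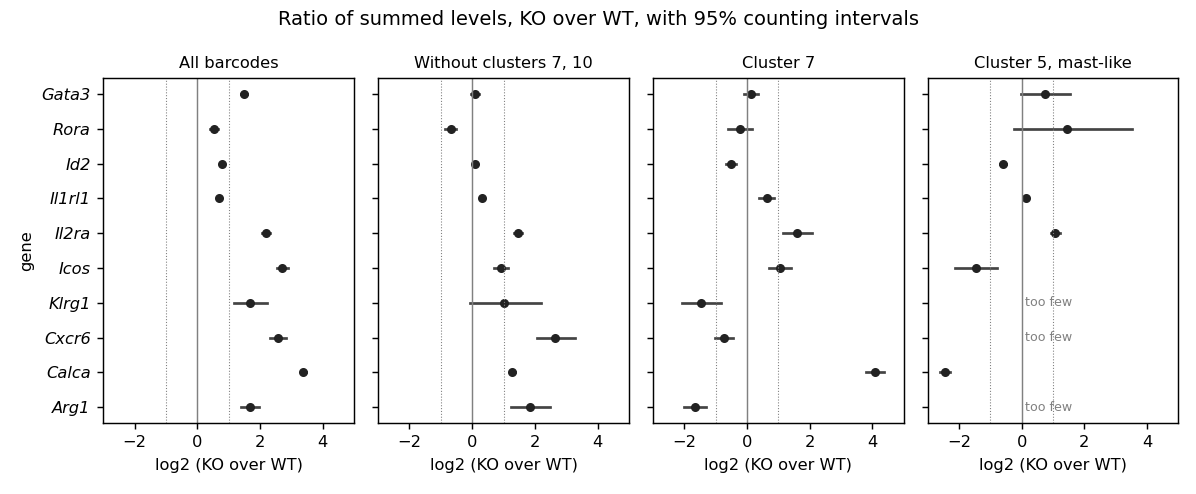
Log2 ratio of summed CPM, KO over WT (horizontal axis), for each of the 10 genes, with exact 95% counting intervals, over all barcodes, without clusters 7 and 10, within cluster 7 and within the mast-like cluster. Dotted lines mark 2-fold, and "too few" marks genes with 3 or fewer UMIs in a library. All 10 points lie to the right of 0 in the first panel, whereas 5 lie to the left in the third.

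Other genes of the group 2 innate lymphoid pathway were read in cluster 7 from a list of 66. At 20 CPM or more stood 35 of them in WT and 38 in KO, and of these 27 and 28 were at least 2-fold over the remaining barcodes, where 18.5% of all genes at that level in WT and 18.1% in KO were. Among receptors, Il17rb, the IL-25 receptor chain, stood at 174 CPM in WT against 327 in KO, Tnfrsf18, which codes for GITR, at 246 and 593 CPM, and Pdcd1, which codes for PD-1, at 94.5 and 417 CPM. Among transcription factors, Bcl11b stood at 200 CPM in WT against 121 in KO, Ets1 at 344 and 288 CPM, and Maf at 174 and 170 CPM, whereas Tbx21, which marks group 1 innate lymphoid cells, stood at 3.78 CPM in WT and 0.763 in KO. Tcf7, an early lymphoid factor, stood at 132 and 31.3 CPM. Among the cytokine genes, Il4 stood at 60.5 CPM in WT against 61.8 in KO (8.19 and 4.32 CPM in the remaining barcodes), Il13 at 30.3 and 33.6 CPM, Il5 at 18.9 and 4.96 CPM, Areg at 15.1 and 8.77 CPM, and Il9 at 0 UMIs in both. Il4 was higher in the mast-like cluster, at 152 CPM in WT and 132 in KO. Il13 stood there at 27.7 CPM in WT and, higher than in cluster 7, at 74.4 CPM in KO. Of the parts of the CGRP receptor, Ramp1 stood at 488 CPM in WT against 343 in KO, below the free RNA of 507 and 594 CPM. Calcrl stood at 11.3 CPM in WT, below its free RNA of 15.2 CPM, and at 26.7 CPM in KO, above its free RNA.

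The genes most like each member were sought over 18 groups of barcodes, each a cluster in 1 library with 50 or more barcodes, among 13273 genes, with the 10 members themselves left out. The groups share libraries, so the coefficients are descriptions without a test. Il2ra was most like Rnf128 (Pearson's r = 0.991), Il1rl1 most like the serotonin synthesis gene Tph1 (0.987) and Id2 most like Bmp7 (0.978). Cxcr6 was most like Stab2 (0.991), Arg1 and Klrg1 most like Gm5127 (0.993 and 0.988), Gata3 most like Fam102a (0.961) and Rora most like Tgtp1 (0.966). Icos was most like Prnp (0.974) and Calca most like Il7r (0.918). Among the members themselves, Cxcr6 and Arg1 (0.979) were closest and Rora and Il1rl1 (0.385) farthest apart. The genes highest in barcodes with 3 or more members over barcodes with none also differed between the libraries. In WT they were led by Grp, Ighv1-23 and Tph1, and in KO by Igkc, Il7r and Pdcd1, with 2 of the 20 leading genes of each library in common, Il7r and Rnf128. Igkc stood at 754 CPM over the 506 KO barcodes. The list of plasma cell markers, which held Igkc, summed in KO to 28.6 CPM in cluster 7, 16.2 in cluster 10 and 8.49 in the mast-like cluster. Of the 506 barcodes, 1 was in the plasma-like cluster 11. Igkc is therefore not read as a companion of the group in those clusters, and its source was not tested.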

How the data were processed

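Sorted LSK cells were profiled by droplet sequencing with a 10x Genomics 3′ kit, 1 library per group. Per the submitters' processing notes the authors used Cell Ranger 6.1.2 and mm10 (the matrix headers name version 4), and what they deposited are raw UMI counts per gene and barcode, not filtered for cells.

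Barcodes with at least 1000 UMIs and under 10% mitochondrial UMIs were kept, which removed 416 WT and 135 KO barcodes by the latter. Kept barcodes held from 1002 to 166991 UMIs in WT and from 1023 to 132939 in KO. Counts were log-normalized and integrated by canonical correlation on 2000 variable genes without the 10 genes (Seurat 5.3.0, R 4.3.3), and clustered by Leiden at resolution 0.5 over 30 components and 20 neighbours. A cluster was named from 3 or more markers at 20 CPM and 2-fold over the rest. No name was given where another list had more markers among the 10 leading genes, or where cell cycle genes led. Doublets were kept. Scrublet (scanpy 1.11.5) marked 1 barcode per library by its own threshold and had not worked, so the 355 WT and 360 KO barcodes of highest score, at an expected 0.8% per 1000 barcodes, were left out in an alternative.

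Counts were summed by cluster and library. Intervals at 95% were exact Poisson for CPM, Clopper-Pearson for shares and conditional binomial for ratios, and cover counting error only. A ratio given for a member needed more than 3 UMIs in each library, whereas shares of all genes past 2-fold used those with 50 or more UMIs over both. The members, marker lists and pathway list were chosen with earlier results of these data known. All 10 members were named. Pathway genes at 20 CPM or more were counted in cluster 7 and examples of them named after their values were seen, with others where a count turned on them. The ratio and interval steps were tested on simulated data. Alternatives covered the UMI and mitochondrial limits, thinning, scaling, composition, doublets and clustering.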

Additional observations from a re-analysis of the deposited data

Results flagged for a closer look

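Some genes moved at least 2-fold in opposite directions in different clusters, and none of these differences between clusters was tested, since there was 1 library per group. The log2 ratio (KO over WT) of Calca was 4.07 in cluster 7 and 6.06 in the basophil-like cluster, but -2.44 in the mast-like cluster. That of Icos was 1.04 in cluster 7 and 2.27 in the basophil-like cluster, but -1.45 in the mast-like cluster. Rora stood at 1.44 in the mast-like cluster (from 4 and 13 UMIs) and 1.85 in the basophil-like cluster, but at -1.11 in the HSC-like cluster. Arg1 stood at 1.01 in the basophil-like cluster (from 7 and 13 UMIs) and at -1.67 in cluster 7. In the mast-like KO barcodes Calca and Icos lay below free RNA. The part of doublets and free RNA in these ratios was not tested.

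Barcodes with over 300 and under 1000 UMIs, which the main comparisons did not use, numbered 1867 in WT and 388 in KO, and several genes stood there above the free RNA of their library. Il1rl1 stood at 510 CPM in WT against 567 in KO, and Id2 at 242 and 152 CPM. Calca stood at 20.9 CPM in WT against 1174 in KO. In KO, Il2ra stood at 44.9 CPM (19.4 to 88.6, from 8 UMIs), Icos at 39.3 CPM (15.8 to 81.0, from 7) and Cxcr6 at 33.7 CPM (12.4 to 73.4, from 6).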

How the results depend on the processing

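No paired analysis was possible because the labels give no replicate numbers and each group had 1 library. The share of barcodes with 3 or more of the genes (0.901% in WT, 7.54% in KO) was 0.342% and 1.28% with a minimum of 0.1 of the 99th percentile of UMIs (8435 in WT and 7693 in KO), under which 37 of 43 WT and 531 of 562 KO barcodes of cluster 7 were left out. It was 4.19% and 16.1% without thinning, 2.06% and 11.1% thinned to 3000 UMIs, 0.315% and 5.96% without Id2, and 2.21% and 14.0% with 2 UMIs asked for. KO was higher in each. The ILC2-like share (0.015% in WT, 1.36% in KO) was 0.661% and 9.92% with the 10 genes kept in the clustering, 0.646% and 9.97% without integration, 0.661% and 9.73% with clusters 7 and 10 together, which was chosen after seeing the data, and 0% in WT without top-scoring doublets.

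The number of genes at least 2-fold higher was 3 in place of 7 at one cluster composition, with log2 ratios of -0.29 for Rora, -0.096 for Id2, -1.06 for Klrg1, -0.19 for Cxcr6 and -0.97 for Arg1. Rora was also -0.12 under the higher UMI minimum. Of 70 ratios under an alternative, 6 turned and 27 moved in size. The count of genes at 20 CPM in mast-like or basophil-like clusters was within 1.5 times its value in 12 of 12. Depth limits the WT side most, with 44 barcodes in clusters 7 and 10, and the alternative with over 300 UMIs held barcodes too shallow to thin to 1000.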
